A study of Mus musculus with 27 samples.

Results

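The Wnt signalling genes are 47 protein-coding genes chosen by name, 14 ligands, 12 receptors, 8 cytoplasmic transducers, 8 nuclear effectors including *Bcl9l*, and 5 secreted inhibitors, among 22367 coding genes of the mm9 annotation. Their histone H3 lysine 4 (H3K4) methylated regions were described in mouse hearts at E11.5 (E, embryonic day), with and without *Kmt2d*, which encodes a methyltransferase of H3K4. A region was assigned to a gene when it overlapped the gene body or lay within 5 kb of a transcription start site (TSS) of any annotated transcript. The members held 504 distinct regions of the 358833 in the merged list. The series holds 27 libraries in 9 groups of 3. Control hearts were *Tnnt2::Cre;Kmt2d fl/+;mTmG/+* and mutant hearts were *Tnnt2::Cre;Kmt2d fl/fl;mTmG/+*, both C57BL/6, with an input and ChIP-Seq libraries for H3K4me1, H3K4me2 and H3K4me3 from pools of 30 hearts. All hearts therefore carried Cre and the membrane reporter, and controls had lost 1 copy of *Kmt2d* wherever Cre acted. Cre was driven by the *Tnnt2* promoter, which is active in heart muscle cells, so the other cells of the whole heart kept *Kmt2d*. The remaining 3 libraries, of KMT2D ChIP-Exo in cardiomyocytes derived from embryonic stem cells, were not analysed here, nor were regions with changed H3K4me3.

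Wnt ligands are secreted glycoproteins that bind Frizzled receptors and the co-receptors LRP5 and LRP6. In the canonical branch the signal passes through Dishevelled proteins to a destruction complex of Axin, APC and GSK3B, and β-catenin then escapes degradation and enters the nucleus. There it joins TCF/LEF factors on DNA, and BCL9 and Pygopus proteins attach to β-catenin as co-activators. Other branches act through ligands such as WNT5A and WNT11 on cell polarity and movement, and the pathway is known for stage-dependent roles in specifying heart muscle, in the second heart field and in the outflow tract. H3K4me1 is typical of enhancers and of the flanks of promoters, H3K4me2 marks both, and H3K4me3 marks active promoters.

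The merged list joins peaks of all 3 marks, and the decreased lists hold the regions that the authors called lower in mutant hearts for H3K4me1 (2730 regions) or for H3K4me2 (6699 regions) and deposited. The study states a false discovery rate below 0.1, which the lists do not allow to be checked. It reports fewer H3K4me2-decreased regions, and fewer regions with both decreases, than these lists hold. Its count for H3K4me1 is the same. Which of the listed regions lie outside the reported set is not known. The lists give positions and no value per library. No difference below therefore has a replicate check of its own, the depth behind each call is unknown, and the deletion of *Kmt2d* could not be checked in these lists. A decrease in whole hearts from fewer cells of a type cannot be told apart from fewer methylated histones per cell. "Decreased" below means listed by the authors. Each call is for a whole region, so a width given with a decrease is that of the listed region. Where inside it the mark fell is unknown, and in a region of both lists the marks may have fallen in different parts. Absence from a list does not show that a region was unchanged.

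The promoters of the members were rich in CpG, and 5 of them are shown as examples, which do not stand for all called and uncalled members. Each is the stretch of 150 bases just before the annotated 5′ end of the gene, read 5′ to 3′ on the strand of the gene from mm9, with CpG pairs in capitals. *Bcl9l* (chr9:44307069-44307218, plus strand), *Tcf7l2* (chr19:55816150-55816299, plus strand) and *Wnt5a* (chr14:29317786-29317935, plus strand) lay at a 5′ end inside a region with decreased H3K4me2. *Axin2* (chr11:108781513-108781662, plus strand) lay at a 5′ end in a region outside both lists, and *Wnt3a* (chr11:59104255-59104404, minus strand) at the TSS of the 1 member with no TSS inside a region.
Bcl9l: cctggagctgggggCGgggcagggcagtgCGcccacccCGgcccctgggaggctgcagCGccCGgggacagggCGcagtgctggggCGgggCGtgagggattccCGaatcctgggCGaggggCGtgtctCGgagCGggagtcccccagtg
Tcf7l2: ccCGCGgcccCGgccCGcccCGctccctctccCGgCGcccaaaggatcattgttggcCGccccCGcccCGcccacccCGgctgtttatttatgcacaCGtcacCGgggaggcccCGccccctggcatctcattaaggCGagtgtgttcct
Wnt5a: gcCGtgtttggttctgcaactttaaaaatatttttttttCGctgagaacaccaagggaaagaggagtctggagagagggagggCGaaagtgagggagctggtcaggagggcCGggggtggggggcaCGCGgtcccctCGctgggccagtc
Axin2: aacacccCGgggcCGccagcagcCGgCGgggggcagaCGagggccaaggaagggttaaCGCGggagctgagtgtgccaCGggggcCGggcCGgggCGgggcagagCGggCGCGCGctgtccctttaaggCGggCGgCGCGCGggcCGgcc
Wnt3a: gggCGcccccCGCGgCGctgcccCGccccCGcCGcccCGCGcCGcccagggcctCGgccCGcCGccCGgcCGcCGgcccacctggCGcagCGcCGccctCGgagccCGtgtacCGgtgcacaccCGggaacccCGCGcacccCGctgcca
These stretches held 13 CpG pairs in *Bcl9l*, 15 in *Tcf7l2*, 7 in *Wnt5a*, 21 in *Axin2* and 26 in *Wnt3a*. Some members not shown went the other way. *Pygo1* with 30 and *Fzd6* with 25 had the 5′ end in an H3K4me2-decreased region, and *Dkk1* with 2 and *Sfrp2* with 5 did not. Over all members the median was 16 CpG pairs, against 6 over the 22364 coding genes with a readable stretch. Those genes include ones with no TSS in a region, and the median of genes with one was not computed. Across whole regions over a TSS the gap was smaller, with a median of 3.32 CpG per 100 bp in members against 2.64 in all coding genes. The 13 members whose gene 5′ end lay in an H3K4me2-decreased region had a median of 13, and the other 34 members a median of 18. The quartiles of these sets were 7 to 16 and 11 to 22.75, so they overlapped.

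Wnt genes carried wide H3K4 methylated regions in the E11.5 heart. A TSS lay inside a region in 46 of the 47 members, against 15752 of the 20025 coding genes that had any region. The median summed width of regions per member was 12060 bp, against 6520 bp over coding genes with a region, and the median widest region over a TSS was 6070 bp, against 3720 bp. The members were also longer, with a median gene length of 25185 bp against 18272 bp. *Tcf7l2* had the most methylated sequence, with 117920 bp in 51 regions. It was followed by *Tcf7l1* with 90480 bp in 43 regions, *Lrp6* with 59480 bp in 35 regions, *Gsk3b* with 56440 bp in 41 regions and *Lef1* with 40200 bp in 33 regions. *Sfrp5* had the least, 3520 bp in 3 regions. *Wnt3a*, a canonical ligand, was the exception by a narrow margin, since a region of 2200 bp began 9 bp after its TSS in the direction of transcription. Its 9 regions summed to 10120 bp.

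**Figure D1:**
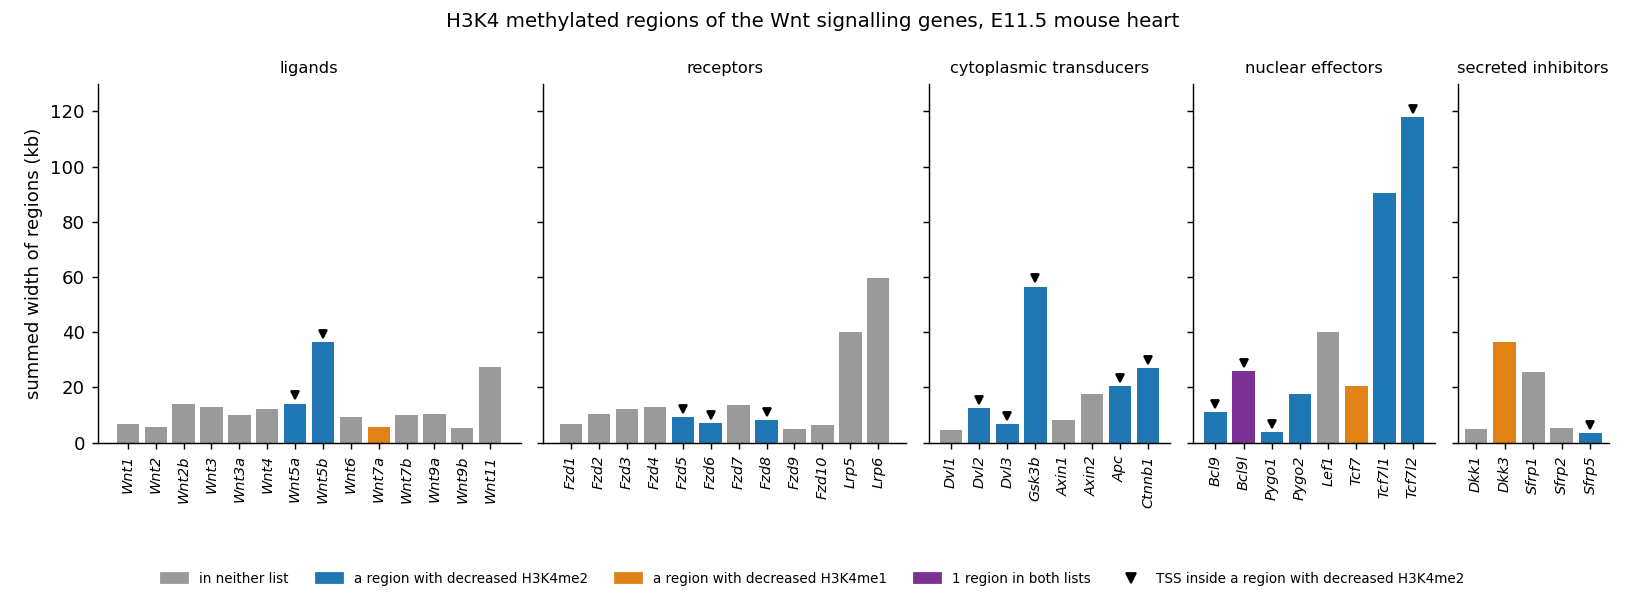
Summed width in kb of the regions in the body or within 5 kb of a TSS of each member, in 5 panels by role. Bar colour gives the decreased list that holds a region of the gene, and a triangle marks a TSS inside an H3K4me2-decreased region. *Tcf7l2* reached 117920 bp, and *Bcl9l* was the member with 1 region in both lists.

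The roles differed in region number and extent. The nuclear effectors had a median of 23190 bp in 10 regions per gene, the cytoplasmic transducers 15060 bp in 6, the ligands 10160 bp in 7, the receptors 9820 bp in 1.5 and the secreted inhibitors 5440 bp in 4. The small value of the receptors came from the Frizzled genes, of which the 10 members had a median gene length of 4588 bp and a median of 1 region per gene. As a check of the tissue, a TSS lay inside a region at 6 of 6 cardiomyocyte markers, 4 of 4 endothelial, 3 of 3 epicardial, 4 of 4 neuronal and 2 of 4 hepatic markers. The median widest TSS region was 16300 bp at the cardiomyocyte markers, 8000 bp at the endothelial, 7360 bp at the epicardial, 2670 bp at the neuronal and 1330 bp at the hepatic markers.

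A region with decreased H3K4me2 was present at 17 of 47 members (36.2%), against 28.7% of the 20025 coding genes with a region. The TSS itself lay in such a region in 15 of 46 members (32.6%), against 29.2% of coding genes with a TSS in a region. A region with decreased H3K4me1 was present at 4 of 47 members (8.51%), against 7.08%, and the TSS lay in one in 1 of 46 (2.17%), against 1.29%. Only *Bcl9l* among the members had regions in both lists, or 2.13% of members, against 2.86% of coding genes. In neither list were 27 members, and by the shares above most coding genes with a region were also in neither. Against coding genes of like summed region width the directions turned: such genes would give 18.4 members with decreased H3K4me2 and 5.59 with decreased H3K4me1. The counts alone do not set the Wnt genes apart. By region, 3.97% of the members' 504 regions were in the H3K4me2 list and 1.19% in the H3K4me1 list, against 2.69% and 0.935% of the regions of all coding genes. The members' regions were wider, with a median of 620 bp against 420 bp, and these shares were not compared at like width. Of the 20 H3K4me2-decreased regions, 16 covered a TSS of the member. Of the 5232 such regions of all coding genes, 76.5% covered a TSS of any coding gene, a wider measure. By that measure the region assigned to *Pygo2* and the intronic region of *Wnt5b* would count too, as each held a TSS of another gene. Of the 6 H3K4me1-decreased regions 5 covered no coding TSS, against 88.5% of the 1820 of all coding genes.

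Region width went with the call among all coding genes. Of the other coding genes, 9.97% had a TSS in an H3K4me2-decreased region when their widest TSS region spanned 1000 to 2000 bp, 27.1% at 2000 to 4000 bp, 36.5% at 4000 to 8000 bp, 43.5% at 8000 to 12000 bp and 51.0% from 12000 bp. Members numbered 0 of 1, 4 of 12, 3 of 16, 5 of 12 and 3 of 5 in the same classes. Shares of like width would give 17.0 of 46 members, and 15 were observed. Members with a TSS in an H3K4me2-decreased region had TSS regions of 2000 to 20640 bp (median 8180 bp), and the others 1120 to 13560 bp (median 4800 bp), so the ranges overlapped widely.

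**Figure D2:**
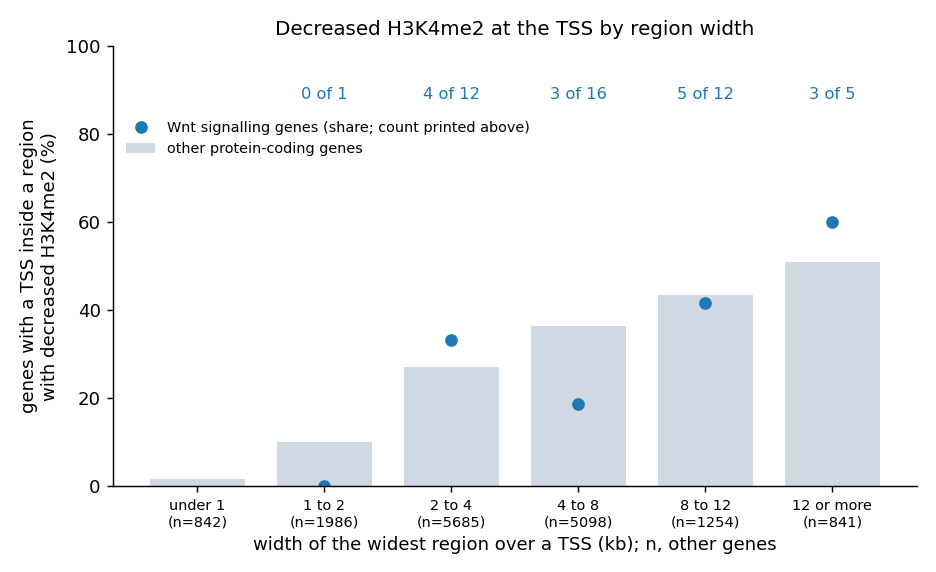
Share in percent of other coding genes (bars) and of Wnt signalling genes (points, counts printed above) with a TSS in an H3K4me2-decreased region, by width in kb of the widest region over a TSS. The share of other genes climbed from 1.78% under 1000 bp to 51.0% from 12000 bp, and the members lay on both sides of the bars.

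By role, the TSS lay in an H3K4me2-decreased region in 5 of 8 cytoplasmic transducers and 4 of 8 nuclear effectors, but in 2 of 13 ligands, 3 of 12 receptors and 1 of 5 secreted inhibitors. Shares of like width would give 3.27, 3.09, 4.29, 4.67 and 1.64. Proteins that act inside the cell thus had 9 of 16 TSS called and those outside or on the cell 6 of 30. The counts are small, this grouping was made with the calls known, and the difference was not tested.

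Among the nuclear effectors, *Bcl9l*, which encodes a β-catenin co-activator of the BCL9 family, was the member with decreases of both marks. Its region, at chr9:44289766-44310405, spanned 20640 bp and ran from 17453 bp before the 5′ end to 3186 bp into the gene. It held the TSS of *Bcl9l* and of no other coding gene, and made up 80.1% of the methylated sequence of the locus. The other 2 regions, summing to 5120 bp, were in neither list. The same region was in both lists at 106 of 20025 coding genes (0.529%), and a TSS lay inside such a region at 21 of 15752 (0.133%). The median width of the 172 regions in both lists was 140 bp, and the *Bcl9l* region ranked 10 among them by width. Regions at least as wide made up 0.989% of the H3K4me1 list and 1.52% of the H3K4me2 list.

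*Bcl9*, the paralog of *Bcl9l*, had decreased H3K4me2 over 6840 bp at its 5′ end (chr3:97026826-97033665), with 5 of its 7 TSS inside. An H3K4me1-decreased region of 5540 bp began 5097 bp from its TSS and was not assigned by the 5 kb rule. The Pygopus genes, whose products bind BCL9 proteins, differed from each other. *Pygo1* had decreased H3K4me2 over 2000 bp at its TSS (chr9:72772606-72774605). The *Pygo2* TSS region of 5580 bp was in neither list, and the decreased region assigned to it (chr3:89219846-89231385, 11540 bp) ended 2751 bp before its 5′ end and held the TSS of *Cks1b* and *Shc1*.

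The TCF/LEF genes encode the DNA-binding partners of β-catenin, and each of the 4 had its own pattern. *Tcf7l2* had decreased H3K4me2 over 18740 bp (chr19:55814146-55832885), from 2154 bp before the 5′ end to 16585 bp inside, with 11 of 17 TSS. Its other 50 regions, 99180 bp in all, were in neither list. *Tcf7* had decreased H3K4me1 in neighbouring intronic regions of 1940 bp (chr11:52085546-52087485) and 1440 bp (chr11:52088126-52089565), and its TSS region of 6040 bp was in neither list. *Tcf7l1*, a TCF known mainly as a repressor, had 1 decreased H3K4me2 region of only 60 bp (chr6:72608026-72608085), the narrowest width in the merged list, in an intron 131163 bp from the 5′ end and nearest to the TSS of another gene, *Gm15401*. *Lef1* had none in 33 regions, with a TSS region of 9040 bp.

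**Figure D3:**
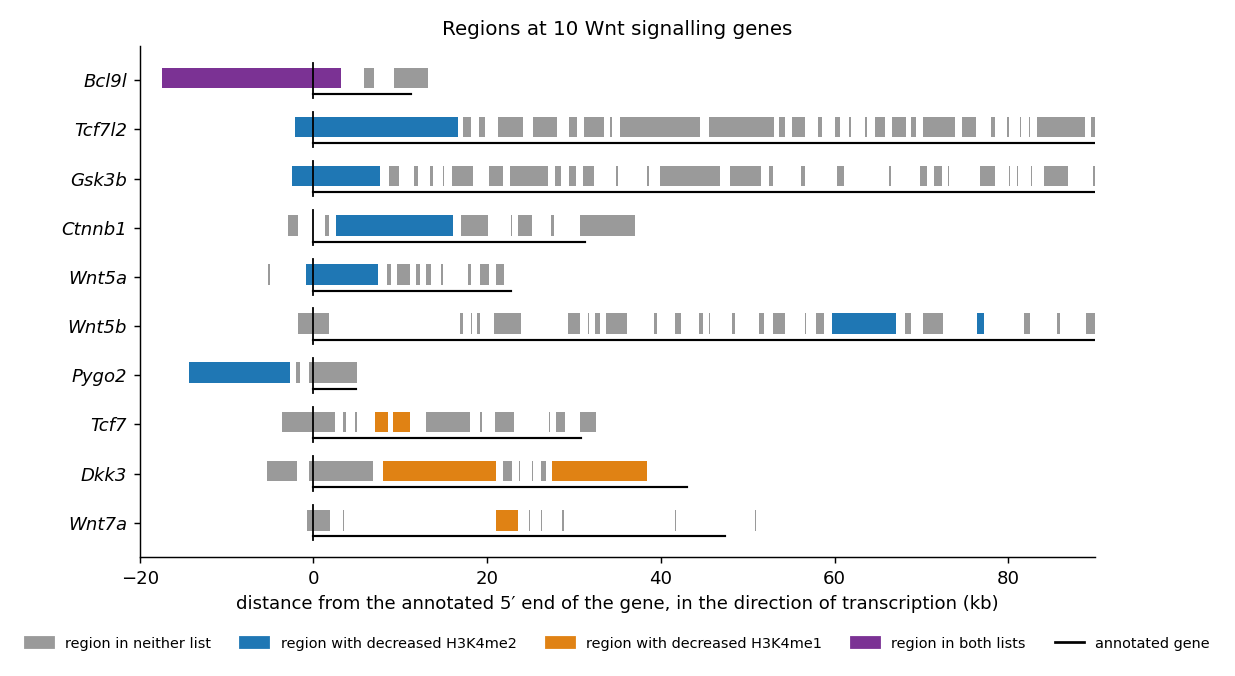
Regions at 10 members with a decreased region, as distance in kb from the annotated 5′ end in the direction of transcription. Lines show the annotated gene and colours the list. H3K4me2 decreases lay at the 5′ end or near an inner TSS of most genes shown, H3K4me1 decreases at *Tcf7*, *Dkk3* and *Wnt7a* lay in the gene, and the *Bcl9l* region was in both lists.

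Among the 8 cytoplasmic transducers, the annotated 5′ end of the gene lay in an H3K4me2-decreased region at *Dvl2*, *Dvl3*, *Gsk3b* and *Apc*, and an inner TSS did so at *Ctnnb1*. The Dishevelled genes *Dvl2* (chr11:69807606-69817645, 10040 bp) and *Dvl3* (chr16:20515366-20521825, 6460 bp) had decreased H3K4me2 at the TSS, and *Dvl1*, with a TSS region of 4160 bp, did not. The *Dvl2* region also held the TSS of *Phf23*. *Gsk3b*, the kinase that marks β-catenin for degradation, had decreased H3K4me2 over 10100 bp (chr16:38086626-38096725), and its other 40 regions, 46340 bp in all, were in neither list. *Apc*, the scaffold of the destruction complex, had 3 decreased regions, the most of any member. They spanned 5400 bp at the 5′ end (chr18:34379626-34385025), 1040 bp in an intron (chr18:34403346-34404385) and 2840 bp with 2 inner TSS (chr18:34406226-34409065). *Ctnnb1*, which encodes β-catenin, had decreased H3K4me2 over 13520 bp (chr9:120840886-120854405), starting 2552 bp after the annotated 5′ end and holding 5 of its 13 TSS. The Axin genes were in neither list. *Axin2*, a scaffold that is itself a target of the canonical pathway, had a TSS region of 10960 bp, and *Axin1* of 4760 bp.

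Of the 14 ligands, 11 were in neither list. Among coding genes with a region, 28.7% had decreased H3K4me2 and 7.08% decreased H3K4me1, so most of those were in neither list too. *Wnt5a*, known for its part in polarity and in the outflow tract, had decreased H3K4me2 over 8280 bp that held all 6 of its TSS (chr14:29317126-29325405). *Wnt5b*, its paralog, had decreased H3K4me2 over 800 bp at an inner TSS (chr6:119417146-119417945) and over 7320 bp of an intron (chr6:119427306-119434625). The intronic region held the TSS of *Fbxl14*. The region at the outermost 5′ end of *Wnt5b* was in neither list. *Wnt7a* had decreased H3K4me1 over 2500 bp of an intron (chr6:91337866-91340365), 20992 bp from the TSS, and its TSS region of 2600 bp was in neither list. *Wnt11*, another ligand with a role in heart development, had a TSS region of 10100 bp, *Wnt2b* of 9400 bp and *Wnt9a* of 9340 bp, all in neither list. The wide TSS regions of these 3 ligands exceeded that of *Wnt5a*.

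Of the 12 receptors, 3 Frizzled genes had decreased H3K4me2, each over the TSS. The regions were *Fzd5* (chr1:64777506-64786705, 9200 bp), *Fzd6* (chr15:38837326-38840205, 2880 bp) and *Fzd8* (chr18:9209226-9217405, 8180 bp). *Fzd5* and *Fzd8* are compact genes, and the decreased region was the only region assigned to each. *Fzd6* had 7 other regions, all in neither list. The 7 Frizzled genes in neither list included those with the widest TSS regions, *Fzd7* (13560 bp), *Fzd4* (12820 bp) and *Fzd2* (10440 bp). The order of width was thus not that of the calls within the family, which was not tested on so few genes. Of other coding genes, 43.5% were called at TSS regions of 8000 to 12000 bp and 51.0% from 12000 bp, so uncalled wide regions are common. The co-receptors *Lrp5* and *Lrp6* were in neither list, with 22 and 35 regions. No receptor had an H3K4me1-decreased region, but only 7.08% of coding genes with a region had one, and 12 receptors are few.

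Among the secreted inhibitors, *Dkk3*, of the Dickkopf family, had the most sequence in H3K4me1-decreased regions, 23960 bp or 65.8% of its methylated sequence. The regions were chr7:119264206-119275165 (10960 bp), from 27406 bp to 38365 bp into the gene, and chr7:119281586-119294585 (13000 bp), from 7986 bp to 20985 bp. They were intronic except for 93 and 222 bp of exon, and the TSS region of 7380 bp was in neither list. *Sfrp5*, a Frizzled-related protein that binds Wnt ligands, had decreased H3K4me2 over 2260 bp at its TSS (chr19:42275586-42277845). *Dkk1*, *Sfrp1* and *Sfrp2* were in neither list.

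The distance to the nearest decreased region showed how far the assignment rule reached. The median distance from a TSS of a member was 47801 bp to an H3K4me2-decreased and 162203 bp to an H3K4me1-decreased region, in lists of unequal length. Over 20020 coding genes with a region the medians were 47560.5 bp and 266653 bp. By role, the median to decreased H3K4me2 was 0 bp for cytoplasmic transducers, 1375.5 bp for nuclear effectors, 56190.5 bp for receptors, 62755 bp for inhibitors and 91109 bp for ligands. Within 20 kb of a TSS lay an H3K4me2-decreased region for 19 members (40.4%, against 35.8% of coding genes) and an H3K4me1-decreased region for 6 (12.8%, against 7.92%). These distances were not compared at like region width. Beyond the 5 kb limit but within 20 kb lay H3K4me2-decreased regions 9450 bp from *Dkk1*, 17851 bp from *Axin2* and 19221 bp from *Fzd2*. The last was a region of 2180 bp that was in both lists.

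**Figure D4:**
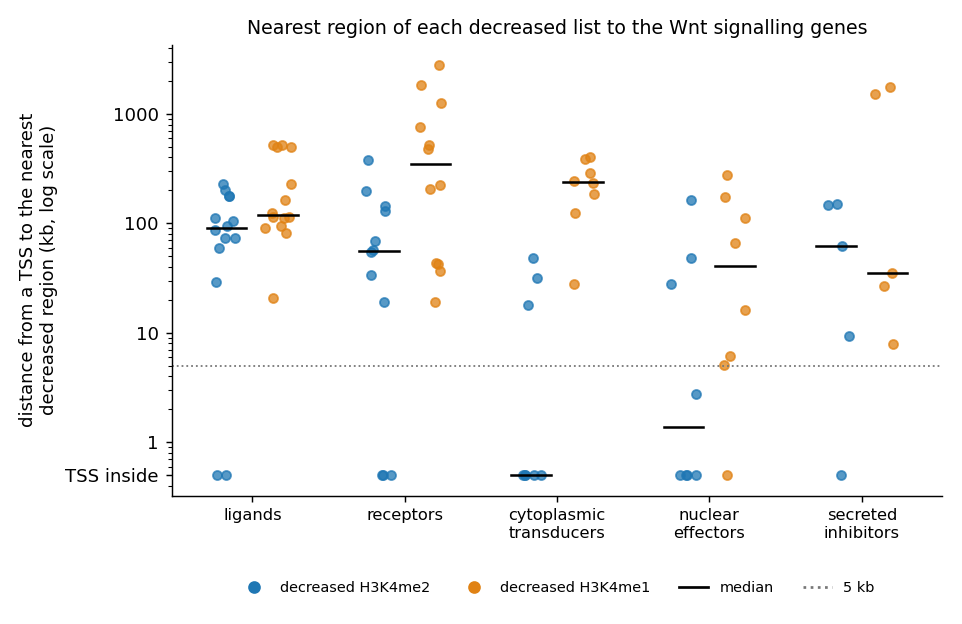
Distance in kb on a log scale from a TSS of each member to the nearest H3K4me2-decreased (blue) and H3K4me1-decreased (orange) region, by role, with medians as bars. Points at the bottom have the TSS inside the region and the dotted line is at 5 kb. The H3K4me2 median was 0 bp for the cytoplasmic transducers and 91109 bp for the ligands.

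In base composition, the 16 decreased member regions over a TSS had a median GC content of 50.5% and 3.06 CpG per 100 bp, and the 39 others over a TSS 54.3% and 3.67. Over all coding genes, regions with a TSS had 50.5% and 2.64, and those in the H3K4me2 list 48.5% and 2.89. The TCF/LEF core words CTTTGAT and CTTTGTT, searched with their reverse complements ATCAAAG and AACAAAG, occurred 0.328 times per kb in the decreased member TSS regions and 0.381 times per kb in the others, against 0.374 in all coding TSS regions and 0.398 in those of the H3K4me2 list. The order of decreased and other regions in the members was thus not that of all genes, but this was not tested. Single regions among the 16 ranged from 0 to 1.76 words per kb. The widest, at *Bcl9l* (20640 bp) and *Tcf7l2* (18740 bp), held 0.145 and 0.267 and weigh most in the pooled rate. The rate without them was not computed. In the promoter stretches of 150 bases the words occurred in 2 members, *Wnt11* and *Fzd7* (4.26%), against 4.18% of all genes.

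The H3K4me1-decreased regions inside genes were further examined for these words, because enhancers are where TCF factors often bind. In the 5 such member regions without a TSS the words occurred 0.57 times per kb, against 0.378 in the 1502 H3K4me1-decreased regions of at least 1000 bp without a coding TSS and 0.462 in all 67221 such regions. That value rested on *Dkk3*, whose 2 regions held 15 of the 17 words, and without *Dkk3* it was 0.34 per kb, below both. The *Dkk3* regions held 7 and 8 words, against medians of 4 and 5 in merged regions within 10% of their width, of which 16.8% and 15.7% held as many. The *Bcl9l* region held 3, against a median of 8 at like width, and 95.2% of such regions held as many. These comparisons matched width and not base composition. The GC content of the *Bcl9l* region was 56.7%, against a median of 45.4% over all merged regions. Stretches of 100 bases on the plus strand of mm9, with the words in capitals, show the sites at these genes. They are chr7:119272951-119273050 in *Dkk3*, where 2 words lay close together, chr11:52085601-52085700 in *Tcf7*, chr6:91338448-91338547 in *Wnt7a* and chr9:44293662-44293761 upstream of *Bcl9l*.
Dkk3: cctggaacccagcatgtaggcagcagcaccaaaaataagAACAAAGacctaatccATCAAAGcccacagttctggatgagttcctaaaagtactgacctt
Tcf7: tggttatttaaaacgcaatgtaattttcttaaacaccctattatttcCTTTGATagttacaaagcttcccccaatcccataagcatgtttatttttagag
Wnt7a: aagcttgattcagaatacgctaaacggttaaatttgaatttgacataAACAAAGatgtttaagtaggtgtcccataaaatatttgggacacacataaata
Bcl9l: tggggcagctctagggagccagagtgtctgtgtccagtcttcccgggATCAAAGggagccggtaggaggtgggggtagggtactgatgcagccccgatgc
A match describes the letters of the region and says nothing of whether a factor was bound there.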

How the data were processed

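Chromatin from E11.5 hearts was sequenced by ChIP-Seq in 24 libraries, and 3 further libraries of KMT2D ChIP-Exo were not analysed here. Per the labels, the authors used CASAVA 1.8.2, FastQC, Bowtie, Bowtie2 and SAMtools on mm9. The peak caller and its settings are not given in the sources used here. The authors deposited 3 lists of region coordinates, with no counts, scores or P values: peaks merged over marks and replicates, and regions with lower H3K4me1 or H3K4me2 in mutant hearts (stated false discovery rate below 0.1). Library depth is unknown, and no test over replicates could be made. Whether regions that gather more reads were called more often was not tested, as the lists hold no counts.

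Groups came from the sample titles. Regions were read with 1-based coordinates, matched between lists by exact position, and assigned to GENCODE vM1 genes by the body or 5 kb rule with Python 3.11.15, pandas 2.3.3 and numpy 2.4.6. The last region of each of 21 chromosomes ended within the NCBIM37 sequence. All 47 members matched the annotation. Every member with a decreased region, the 5 with the largest summed width and any without a TSS in a region are named, and others were named for their width after the values were seen. Shares at like width used the classes given in the text, on genes outside the 47. The code was tested on simulated data. The members and lists were chosen with earlier results of these data known. Alternatives were window size, body, TSS set, region width, overlap and nearest gene.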

Additional observations from a re-analysis of the deposited data

How the results depend on the processing

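The 9 results were recomputed under 44 alternatives, of which 39 were labelled the same. Counts were so labelled within 1.5 times the main value. Ratios to the background were not held to that limit or to the same side of 1. The label thus includes the H3K4me1 ratio that went from 1.2 to 0.716. A 20 kb window raised the median summed width to 18420 bp, the members with decreased H3K4me1 to 7 and those with a region in both lists to 4, adding *Fzd2*, *Bcl9* and *Pygo2*. Using the widest region in place of the sum gave a median of 6840 bp. Leaving out the gene body reduced the members with decreased H3K4me1 to 1, losing *Wnt7a*, *Tcf7* and *Dkk3*. The count with decreased H3K4me2 ranged from 15 to 20, and assigning each region to the nearest gene lost *Pygo2* and *Tcf7l1*. Using the gene 5′ end alone lost the TSS calls of *Wnt5b* and *Ctnnb1*. Against all coding genes, the members' count was 1.26 times that given by the background share for decreased H3K4me2 and 1.2 times for decreased H3K4me1. Against genes of like summed width these ratios were 0.926 and 0.716, on the other side of 1. For the TSS the ratio was 1.12 against all genes, 1.0 at like summed width and 0.885 at like TSS region width, the last chosen after seeing the data. No paired analysis was possible because the lists hold no value per library, and no replicate could be left out for the same reason.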

Other observations

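A further 55 genes of the pathway, listed by role alongside the members, gave counts of the same order. A TSS lay inside a region in 53 of them, an H3K4me2-decreased region was present at 20 (36.4%, against 28.7% of coding genes with a region), the TSS lay in one in 15 (28.3%, against 29.2%), and an H3K4me1-decreased region was present at 5 (9.09%, against 7.08%). Shares of genes of like width would give 22.0, 17.0 and 8.64. The Groucho family co-repressors *Tle1*, *Tle2*, *Tle3* and *Tle4*, which bind TCF factors in the absence of β-catenin, had a TSS in an H3K4me2-decreased region in 4 of 4 cases, over 14540, 9860, 19200 and 6300 bp. Shares at like TSS region width would give 1.82 of 4, and the family was singled out after the calls were seen. The others with such a TSS were *Wls*, which carries Wnt ligands to the cell surface, the receptors *Ror1*, *Ror2* and *Lgr4*, the ubiquitin ligase genes *Rnf43* and *Btrc*, the kinase gene *Csnk1a1*, the tankyrase gene *Tnks*, and *Cxxc4*, *Vangl1* and *Prickle1*. The genes *Ror2*, *Lgr6*, *Kremen1* and *Cxxc4* had regions in each list, but no region of theirs was in both. *Ror2*, a receptor for WNT5A, had 3 regions in each list. *Nkd1*, an inhibitor that binds Dishevelled, had decreased H3K4me1 over 12000 bp inside the gene. *Ryk*, *Chd8* and *Sfrp4* had a decreased H3K4me2 region without a TSS of their own. The *Chd8* region held the TSS of *Supt16h* and the *Sfrp4* region that of *Epdr1*, and both genes are in the counts by role below. By role, the counts were 1 of 11 ligand-related genes, 7 of 10 receptors, 6 of 18 transducers, 5 of 10 nuclear effectors and 1 of 6 inhibitors with decreased H3K4me2 in any region. Genes of like summed width would give 3.12, 5.03, 8.05, 4.08 and 1.68, and the receptors had a median gene length of 107770 bp.

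The 2840-bp inner region of *Apc* held 5 TCF/LEF core words, and 1.24% of the 7716 merged regions within 10% of its width held as many. It was singled out after the counts of all called regions were seen, base composition was not matched, and no explanation was tested.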
